A study of Mus musculus with 3 samples.

Results

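Lipid-associated macrophages with high Spp1 and some Gpnmb were picked out of single-cell RNA libraries of mouse aorta by a rule on their transcript counts. Counts are in UMIs, molecular tags that let each captured RNA molecule be counted once. A cell was a member when Spp1 made up at least 0.4% of its UMIs, when it held at least 1 UMI each of Gpnmb and Cd68, and when Cd3d, Cd3e and Cd3g summed to at most 1 UMI. Only barcodes with 200 or more genes detected, and with mitochondrial genes giving no more than 10% of UMIs, entered. The rule found 82 cells among the 5465 that passed these limits. The members were thus chosen by the measured levels of Spp1, Gpnmb, Cd68 and the Cd3 genes, so high values of these genes in the members are a description and no finding.

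The study profiled sorted cells of the suprarenal aorta to describe macrophages in aortic lesions, with 1 library for each of 3 groups and 14 mice in all. The control library pooled 5 C57BL/6 mice on chow. The room air library pooled 5 Apoe-/- mice, which lack apolipoprotein E and develop atherosclerosis, after 16 weeks on a lipid-rich diet that the labels call both Western and high fat. The aneurysm library pooled 4 Apoe-/- mice given the same diet together with cigarette smoke for 16 weeks, and only animals whose aorta had measurably dilated were taken. In every group the sorter kept CD45+CD31- leukocytes together with CD45-CD31+ cells, while the labels name only CD45+ leukocytes. A smoke-exposed group without aneurysm is mentioned in the labels and was not analysed here. Genotype and diet changed together between control and room air, and smoke came together with selection for dilatation in the aneurysm library, so the effects within each of these pairs cannot be told apart.

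Each group is 1 library of pooled aortas, so no difference between groups has a replicate check and no test was made. Ratios are given with 95% intervals that cover counting error only, that is, neither differences between mice nor between cells. The libraries held 782, 1851 and 2842 barcodes for control, room air and aneurysm, against 738, 1736 and 2685 cells stated in the labels, and totals of 2568192, 9998517 and 16698309 UMIs. Apoe, the gene disrupted in 2 of the groups, had 27000 UMIs in the control library, 171 in the room air library and 216 in the aneurysm library. Of the barcode sequences, 4 occurred in both control and room air, 5 in both room air and aneurysm, and none of these belonged to a member.

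Macrophages that take up lipid from dying cells and lipoproteins turn on a recurrent group of genes in atherosclerotic plaque, fat tissue and injured tissue. The lipid receptor Trem2 and its adaptor Tyrobp signal the uptake, Fabp5 and Plin2 carry and store fatty acids, and lysosomal cathepsins and lipases digest the cargo. Spp1 encodes osteopontin, a secreted matrix and cytokine-like protein, and Gpnmb encodes a lysosomal and cell-surface glycoprotein. Such cells are also known as foamy or Trem2-high macrophages in arterial walls.

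The stretches upstream of the start of Spp1, Gpnmb, Trem2 and Mmp12 are shown because these genes define the members or separate them from their neighbours in the results that follow. Each is the 250 bases before a RefSeq start on the plus strand of GRCm38.p6: chr5:104434861-104435110 for Spp1, chr6:49036268-49036517 for Gpnmb, chr17:48346151-48346400 for Trem2 and chr9:7344147-7344396 for Mmp12. Capitals mark a match, on either strand, to 1 of 4 short motifs: TGANTCA of AP-1 factors, GAGGAAGT of ETS factors such as PU.1, the E-box CACGTG, and TCATGTG, the core of the M-box read by MITF family factors.
Spp1: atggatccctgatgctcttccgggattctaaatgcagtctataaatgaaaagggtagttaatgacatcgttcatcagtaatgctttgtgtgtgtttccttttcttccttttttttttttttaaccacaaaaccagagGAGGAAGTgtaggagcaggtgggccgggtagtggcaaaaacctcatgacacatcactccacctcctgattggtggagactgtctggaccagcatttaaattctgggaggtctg
Gpnmb: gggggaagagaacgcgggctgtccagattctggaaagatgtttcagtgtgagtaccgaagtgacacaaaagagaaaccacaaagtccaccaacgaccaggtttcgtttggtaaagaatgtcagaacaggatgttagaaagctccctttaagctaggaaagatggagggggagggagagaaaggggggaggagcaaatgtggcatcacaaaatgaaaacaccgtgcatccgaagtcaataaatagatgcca
Trem2: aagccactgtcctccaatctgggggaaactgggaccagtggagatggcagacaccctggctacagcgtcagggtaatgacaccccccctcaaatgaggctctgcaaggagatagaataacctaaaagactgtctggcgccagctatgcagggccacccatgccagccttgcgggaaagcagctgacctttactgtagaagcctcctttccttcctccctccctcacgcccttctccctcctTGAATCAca
Mmp12: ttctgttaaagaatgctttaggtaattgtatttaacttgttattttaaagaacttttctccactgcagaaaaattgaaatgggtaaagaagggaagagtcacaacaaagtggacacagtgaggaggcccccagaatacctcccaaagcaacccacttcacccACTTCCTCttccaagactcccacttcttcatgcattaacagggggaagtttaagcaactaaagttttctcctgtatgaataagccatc
The PU.1 match begins 113 bases before the Spp1 start and 88 bases before the Mmp12 start, and the AP-1 match in Trem2 begins 9 bases before its start. None of the 4 letter strings is in the Gpnmb window. A gene can have several starts and so several windows: of all 32851 mouse windows of this length, 6.75% held the AP-1 letters, 2.44% the PU.1 letters, 6.02% the E-box and 3.25% the M-box core. Over 27025 genes, the shares with the letters in any window were 7.82%, 2.79%, 6.86% and 3.72%. Of the 20 genes named below for the highest levels over other macrophages, 18 had a window. AP-1 letters were in a window of Emp1, Il1rn and Mmp12, the E-box in one of Ctsd, Ctsl and Pdpn, and the PU.1 letters and the M-box core each in one of Mmp12. The AP-1 and M-box letters of Mmp12 are in the window of another start, chr9:7347124-7347373, and not in the one printed. A match is a string of letters, with no binding measured here. The genes lie at chr5:104435118-104441050 (Spp1), chr6:49036546-49070929 (Gpnmb), chr17:48346401-48354147 (Trem2), chr3:10012548-10016607 (Fabp5) and chr9:7344381-7369499 (Mmp12), all protein-coding and on the plus strand.

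The members were 0 of 778 control cells, 33 of 1848 room air cells and 49 of 2839 aneurysm cells. The control count of 0 allows a share of up to 0.386% on a floor of 3 counts, and the exact binomial upper limit is 0.473%. Members made up 1.79% of room air cells (exact binomial interval 1.23% to 2.50%) and 1.73% of aneurysm cells (1.28% to 2.28%), and the intervals overlap. Of the steps of the rule, the Spp1 limit kept 81 room air and 103 aneurysm cells, the Gpnmb requirement left 57 and 64, and Cd68 left 57 and 63. The Cd3 limit then set aside 24 room air cells and 14 aneurysm cells. These were deep cells, with a median of 17135 UMIs in room air against 8800 in the members, and 12745 against 7799 in aneurysm. In room air 24 cells and in aneurysm 39 cells passed the Spp1 limit without a Gpnmb UMI. With no Cd3 limit the members were 57 and 63, and with Spp1 at 1% or more they were 18 and 35, so the 2 shares keep no fixed order under other limits.

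**Figure D1:**
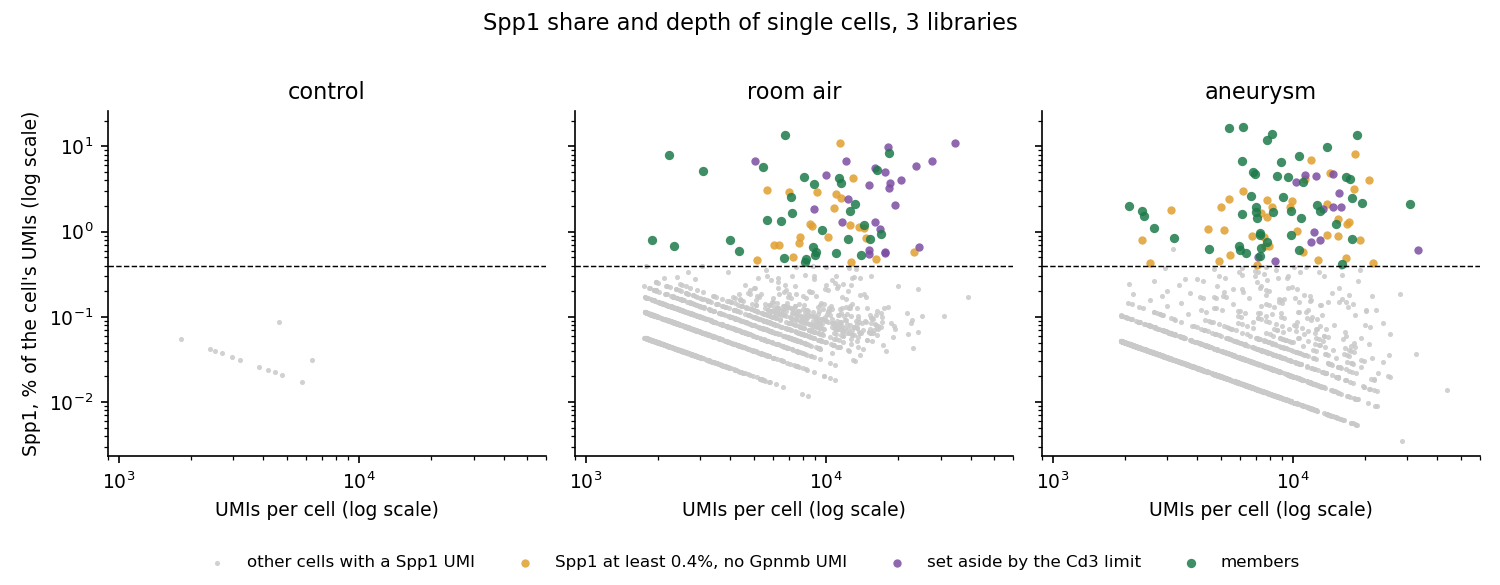
Spp1 as a percentage of a cell's UMIs (vertical, log scale) against the cell's UMI total (horizontal, log scale) for each cell with a Spp1 UMI in the 3 libraries; the dashed line is the 0.4% limit. No control cell reached the line, and the cells set aside by the Cd3 limit lie among the deepest cells above it.

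Spp1 RNA was spread thinly over other cells. At least 1 Spp1 UMI was found in 13 control, 1697 room air and 1695 aneurysm cells, and B cells, which should lack it, held 744 CPM (counts per 1e6 UMIs) in room air and 166 CPM in aneurysm. Gpnmb had a UMI in 0 control cells, 395 room air cells and 418 aneurysm cells. The members' Spp1 share ran from 0.438% through a median of 1.21% to 13.6% in room air and from 0.413% through 1.75% to 17.05% in aneurysm, above the highest B cell of either library (0.256% and 0.140%). Just outside the limit, between 0.2% and 0.4%, stood 16 room air and 21 aneurysm cells that met the other conditions, with Trem2 at 602 and 587 CPM. Just inside, between 0.4% and 0.6%, stood 8 and 3 members, with Trem2 at 933 and 472 CPM.

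The label was checked against marker genes that the rule did not use. Of the lipid-macrophage markers these were Trem2 and Fabp5, which summed to 2098 and 3141 CPM in room air and aneurysm members, against 198 and 106 CPM in B cells. The 7 general macrophage markers other than Cd68 were all detected in both libraries and summed to 16480 and 12101 CPM, against 1949 and 784 CPM in B cells. The 4 B cell markers summed to 89.8 and 76.6 CPM, against 5474 and 5865 CPM in B cells, and the 3 T cell markers in the table, which are the Cd3 genes that the rule limits, to 69.8 and 29.8 CPM, against 3063 and 3035 CPM in T cells. The 8 resident macrophage markers summed to 392 and 568 CPM, against 179 and 105 CPM in B cells, and 1 was at 0 in room air and none in aneurysm. They summed to 5038 and 4485 CPM in resident-type macrophages, which 4 of these genes chose. Smooth muscle markers summed to 16.6 and 12.8 CPM with 3 and 2 of 4 at 0, and all 3 mast cell markers were at 0 in both. Neutrophil markers summed to 599 and 836 CPM, against 471 and 451 CPM in B cells, with 1 aneurysm member at 298 per 10000 UMIs. Classical monocyte markers summed to 522 and 721 CPM, against 1353 and 1341 CPM in B cells. The part of the neutrophil RNA in any result was not tested.

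Trem2, the lipid-sensing receptor and the only one of the 4 markers whose ratio stayed near 1 with and without the Cd3 limit (0.957 and 0.984), stood at 1041 and 996 CPM in room air and aneurysm members. It had a UMI in 31 of 33 and 44 of 49 members. Per 10000 UMIs of a cell it ran from 0 through a median of 8.57 to 29.4 in room air and from 0 through 8.10 to 49.1 in aneurysm, and the ranges overlap. After every cell was thinned to 3000 UMIs, leaving out 3 and 4 shallower members, Trem2 was found in 83.3% and 77.8% of members, in 53.2% and 56.5% of C1q-high macrophages and in 14.8% and 8.05% of B cells.

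Fabp5, a fatty acid carrier, stood at 1057 and 2145 CPM in room air and aneurysm, a ratio of 2.03 (1.79 to 2.31). It had a UMI in 30 and 44 members. Its median was 5.27 per 10000 UMIs in room air and 15.1 in aneurysm, with highest cells of 75.9 and 130, and the groups overlapped. Without the Cd3 limit the ratio was 1.30. Gpnmb, used by the rule, ran from 0.694 through 5.68 to 71.6 per 10000 UMIs in room air and from 0.565 through 8.77 to 147 in aneurysm.

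**Figure D2:**
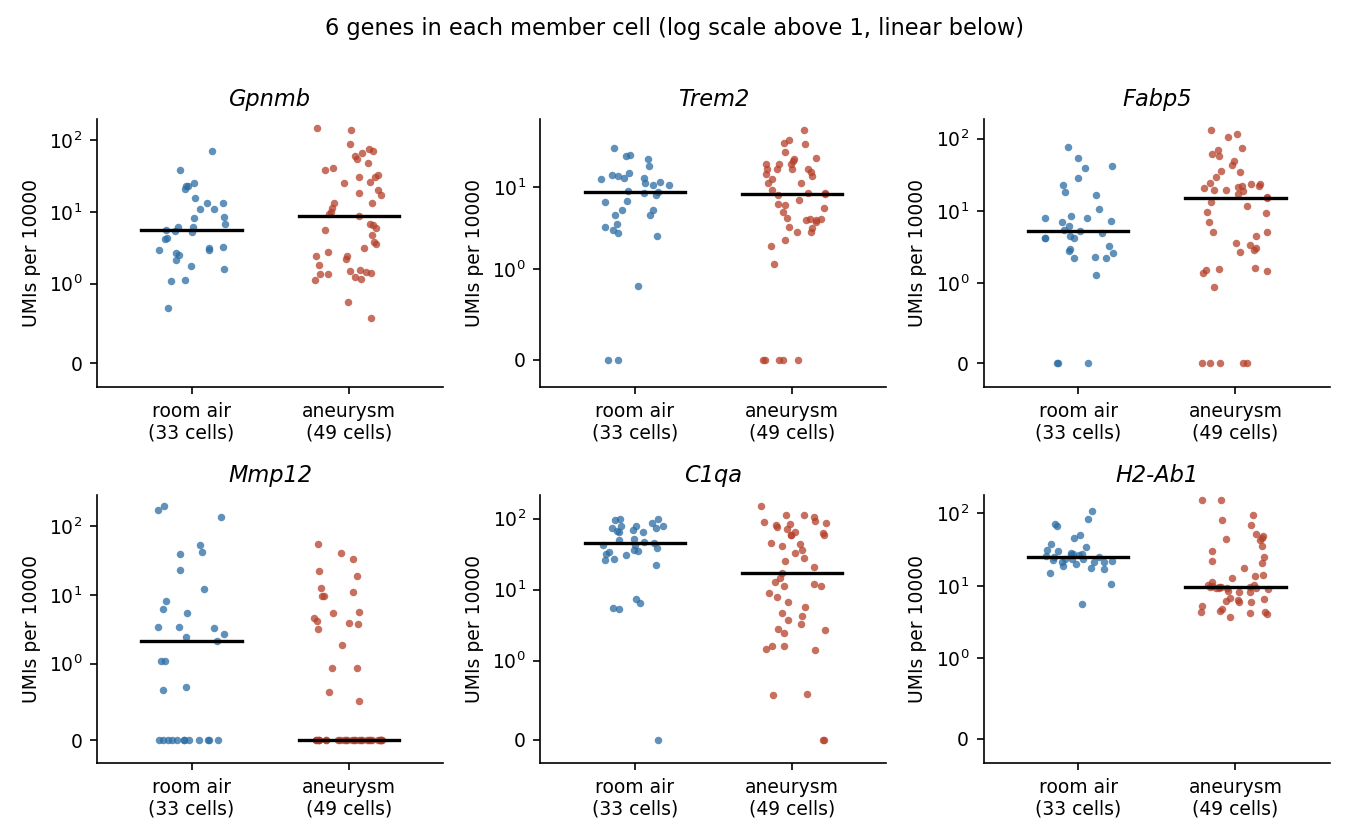
UMIs of 6 genes per 10000 UMIs in each member (points; vertical axis logarithmic above 1 and linear below), for 33 room air and 49 aneurysm cells, with the median as a bar. Mmp12 has a median of 2.14 in room air and 0 in aneurysm, and the C1qa median is 45.2 against 17.2.

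The members were next set beside C1q-high macrophages of their own library, a larger set named for its C1q limit. Those were cells with at least 10 UMIs of C1qa, C1qb and C1qc together, a Cd68 UMI, no Gpnmb UMI, Spp1 below 0.4%, at most 1 Cd3 UMI and at most 1 UMI of 4 resident macrophage genes: 258 in room air and 261 in aneurysm, with median depths of 5856 and 6584 UMIs. With C1q at 1% or more of UMIs in place of the 10 UMIs, 130 and 173 cells entered. The C1q-high set was mixed: its classical monocyte markers summed to 1525 and 1665 CPM in room air and aneurysm, against 522 and 721 CPM in members. Its dendritic cell markers summed to 608 and 222 CPM, against 89.8 and 138 CPM. Because Gpnmb and Spp1 chose both sides, these ratios describe the cells the rule separates. Genes entered by their level in the members, so the shares of higher and lower genes are not to be set against each other. Of genes at 20 CPM or more in members, 17.7% of 4715 were over 1.5-fold higher in room air and 14.5% of 4711 in aneurysm, and 12.0% and 11.0% were over 1.5-fold lower.

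Of 22 measured genes of a lipid-associated macrophage list, with the rule's Spp1 and Gpnmb left out, 19 were over 1.5-fold higher than in C1q-high macrophages in each library. Their medians were 1.70 and 1.80 on the log2 scale, against 0.05 and 0.01 over all genes. The list was chosen with earlier results of these data known, so these values are a description and no test. Trem2 was 3.22-fold higher in room air and 2.98-fold higher in aneurysm. Fabp5 was 3.21-fold and 7.66-fold higher. Lgals3, which encodes the galactoside-binding lectin galectin-3, stood at 8675 and 11115 CPM in members and was 3.49-fold and 3.88-fold higher. Il1rn, the interleukin 1 receptor antagonist, went from 48.2 to 406 CPM in room air and from 86.9 to 632 CPM in aneurysm, 8.42-fold and 7.27-fold.

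Genes of lysosomal enzymes were higher in many cases. Ctsd, the lysosomal aspartic protease cathepsin D, was 5.25-fold (4.88 to 5.64) and 4.78-fold (4.50 to 5.08) higher in members of room air and aneurysm. Ctsl, the cysteine protease cathepsin L, was 4.86-fold and 8.63-fold higher. Ctsb, cathepsin B, was 3.27-fold and 3.21-fold higher, with UMIs in every member. Of 34 lysosome genes, 22 were over 1.5-fold higher in room air and 18 in aneurysm, and of the extracellular proteases 7 of 10 and 10 of 12.

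Mmp12, macrophage elastase, a metalloproteinase that cleaves elastin, was 8.83-fold higher in room air (2012 against 228 CPM) and 5.80-fold higher in aneurysm (526 against 90.5 CPM). Adam8, a cell-surface metalloproteinase, was 5.38-fold and 4.86-fold higher. A pair of genes best known from osteoclasts were also high: Atp6v0d2, a proton pump subunit, was 18.8-fold and 19.6-fold higher, and Ctsk, the collagen-cleaving cathepsin K, 9.09-fold and 23.5-fold. These were carried by few cells, Atp6v0d2 by 10 of 33 and 16 of 49 members and Ctsk by 8 and 10. Of the osteoclast-like genes measured, 4 of 9 and 4 of 7 were over 1.5-fold higher.

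The other named genes had varied roles. Ccl2, the monocyte-attracting chemokine, was 11.2-fold and 11.6-fold higher and found in 19 of 33 and 34 of 49 members. Pdpn, the mucin-type glycoprotein podoplanin, was 14.5-fold and 29.3-fold higher, and Npy, the peptide neuropeptide Y, 36.8-fold and 21.3-fold. Pdgfa, a platelet-derived growth factor chain, was 4.28-fold and 4.17-fold higher, and 9 of 15 growth factor and matrix genes in room air and 11 of 15 in aneurysm passed 1.5-fold. The synaptogyrin gene Syngr1 was 9.27-fold and 7.78-fold higher and was widely shared, with UMIs in 25 and 36 members. Also named by the ranking were Rnf128, Emp1, Fam20c, Clec4d, Vat1, Rgcc and Mfge8, at 3.81-fold or more. Cd5l led the ranking at 233 CPM in room air, but all its UMIs there came from 1 cell. In the same library 1 cell gave 63.8% of the Mfge8 UMIs and 85.7% of the Rgcc UMIs. In aneurysm too these were carried by few cells: 41 of 49 members held no Mfge8 UMI and 42 no Cd5l UMI. The highest aneurysm cells held 60 and 17 UMIs.

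Antigen presentation genes were lower than in the C1q-high set, which held more dendritic cell and classical monocyte marker RNA than the members. The part of that RNA in these ratios was not tested. Cd74, the class II invariant chain, stood at 7202 and 8949 CPM in members of room air and aneurysm, 4.54-fold and 4.28-fold below C1q-high macrophages. H2-Eb1 was 5.41-fold and 5.21-fold lower, H2-Ab1 4.05-fold and 4.50-fold, and 9 of 10 class II genes were over 1.5-fold lower in each library. Plac8, high in monocytes, was 6.74-fold and 6.21-fold lower. The other genes at the bottom were Siglece, Rogdi, Clec4b1, Mzb1, Ear2 and Plbd1, with Mzb1, known from plasma cells, at 13.3 and 12.8 CPM in members and 537 and 567 CPM in B cells. Interferon response genes were over 1.5-fold lower for 7 of 8 in room air and 8 of 11 in aneurysm.

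**Figure D3:**
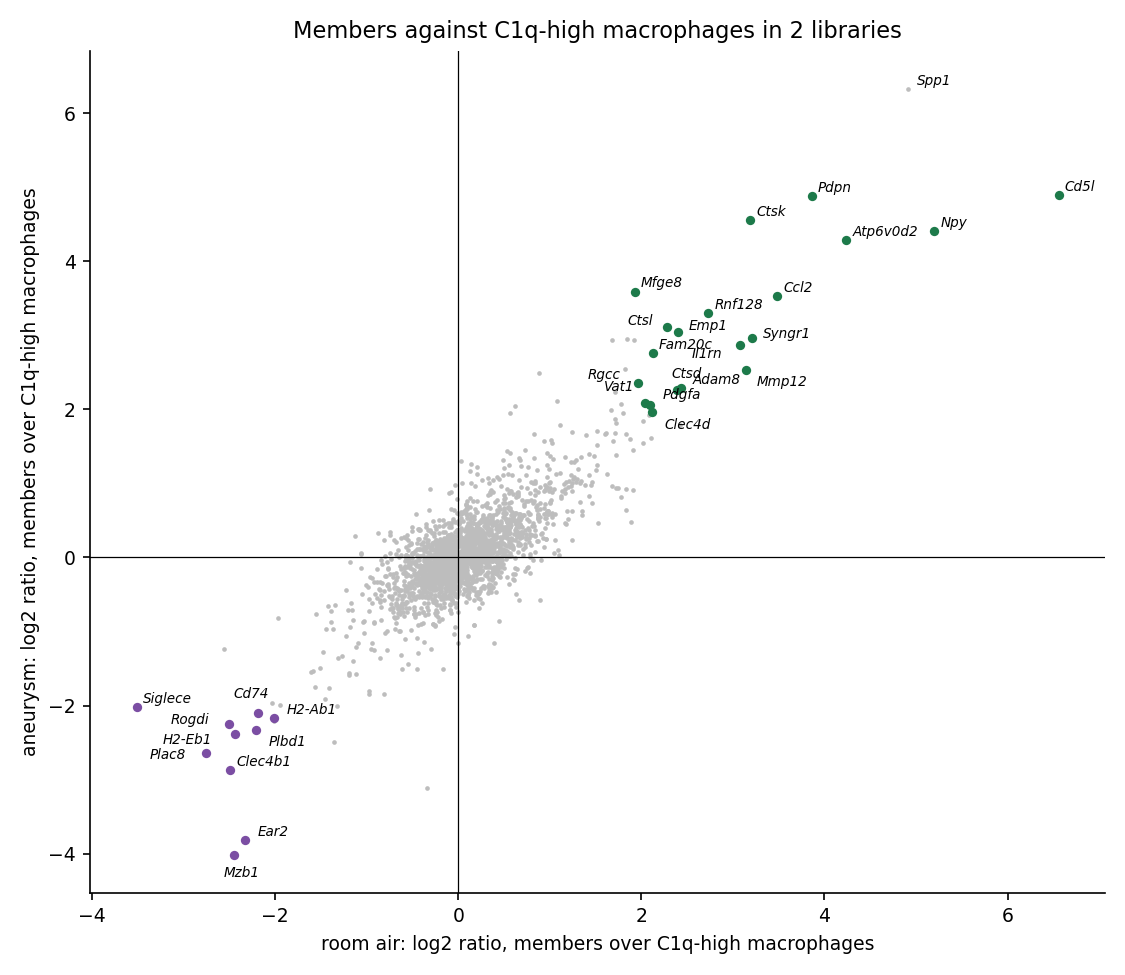
Log2 ratio of members over C1q-high macrophages in room air (horizontal) and aneurysm (vertical) for genes at 50 CPM or more in members of both (grey), with the named genes in green (higher) and purple (lower). The named genes lie far from the origin in both libraries, Atp6v0d2 at 18.8-fold and 19.6-fold and Cd74 at 4.54-fold and 4.28-fold lower.

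Of the glycolysis and hypoxia genes, 9 of 19 in room air and 14 of 21 in aneurysm were over 1.5-fold higher than in C1q-high macrophages, Pkm, a pyruvate kinase, by 1.96-fold and 2.38-fold. Of 40 oxidative phosphorylation genes, 1 passed 1.5-fold in each library, with medians of 0.09 and 0.08 on the log2 scale. Genes detected per cell at 3000 UMIs were alike: 1289 and 1269 in members, 1322 and 1277 in C1q-high macrophages.

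Members were not uniform in complement C1q, a subunit set made by most mature tissue macrophages. The summed share of C1qa, C1qb and C1qc ran from 0.0842% through a median of 1.41% to 3.00% of UMIs in room air members and from 0.0273% through 0.794% to 3.38% in aneurysm members. Below 0.3% stood 4 of 33 room air members (12.1%, exact binomial interval 3.40% to 28.2%) and 15 of 49 aneurysm members (30.6%, 18.3% to 45.4%), and the intervals overlap. The 0.3% limit was chosen after the values were seen and cuts a range rather than a gap: at 0.2% the counts were 3 and 13, and at 0.5% they were 5 and 20. With the cells set aside by the Cd3 limit included, the counts were 7 of 57 and 19 of 63. B cells of the same libraries, which should lack C1q, held 0.177% and 0.0736%.

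Median depths of the low-C1q and the other members were 9292 and 8800 UMIs in room air and 7102 and 8792 in aneurysm. Their median Spp1 share was 2.10% against 1.05% in room air and 4.20% against 1.74% in aneurysm. The genes of the next 2 paragraphs were picked after these values were seen.

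Several chemokine, receptor and monocyte genes were higher in the low-C1q members. Ccl7, a monocyte chemokine, stood at 4778 CPM against 392 CPM in room air and 3799 against 555 CPM in aneurysm, 12.2-fold and 6.85-fold, with 79.7% of the room air UMIs from 1 cell. Clec4n, which encodes the fungal pattern receptor dectin-2, was 4.60-fold and 6.06-fold higher and was found in 4 of 4 and 14 of 15 low-C1q members. Chil3, a chitinase-like protein gene of monocytes, was 4.51-fold and 4.81-fold higher, with 88.2% of the room air UMIs from 1 cell. Plaur, the urokinase receptor, was 9.07-fold and 4.81-fold higher, and Cebpb, a myeloid transcription factor, 2.53-fold and 3.03-fold. Il1rn was 4.03-fold and 2.67-fold higher. The highest room air member held 18 Plaur UMIs, and the highest for Il1rn held 33, while 21 and 16 of all 33 room air members held none. With 4 low-C1q members in room air, 1 cell can carry such ratios. The members' own markers split: Gpnmb was 1.44-fold and 1.48-fold higher, while Trem2 was 2.24-fold and 3.01-fold lower.

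Other genes were lower in the low-C1q members. Timp2, an inhibitor of matrix metalloproteinases, stood at 105 against 712 CPM in room air and 125 against 725 CPM in aneurysm, 6.78-fold and 5.82-fold lower. Sepp1, selenoprotein P, was 3.65-fold and 6.54-fold lower. Adgre1, which encodes F4/80, was 3.68-fold and 2.36-fold lower, and Ms4a7 3.40-fold and 3.27-fold. Mmp12 was 8.63-fold and 3.63-fold lower, with a UMI in 1 of 4 and 3 of 15 low-C1q members against 20 of 29 and 18 of 34 others, and Ctsl was 4.04-fold and 2.37-fold lower. Csf1r, the colony-stimulating factor receptor shared by monocytes and macrophages, had intervals that included 1 in both.

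In the aneurysm library, where 15 such cells could be summed, 737 of 3031 genes (24.3%) were over 1.5-fold higher and 504 (16.6%) over 1.5-fold lower in the low-C1q members, with an all-gene median of 0.11 on the log2 scale. Of 20 glycolysis and hypoxia genes 15 were higher and 1 lower, with a median of 1.01, and of 18 genes of the NRF2 and smoke response 9 were higher and 1 lower. Pkm stood at 2486 against 1196 CPM there and at 1313 against 1184 CPM in room air. Of 13 growth factor and matrix genes 9 were higher and 2 lower, and of 12 resident macrophage genes 2 were higher and 7 lower.

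**Figure D4:**
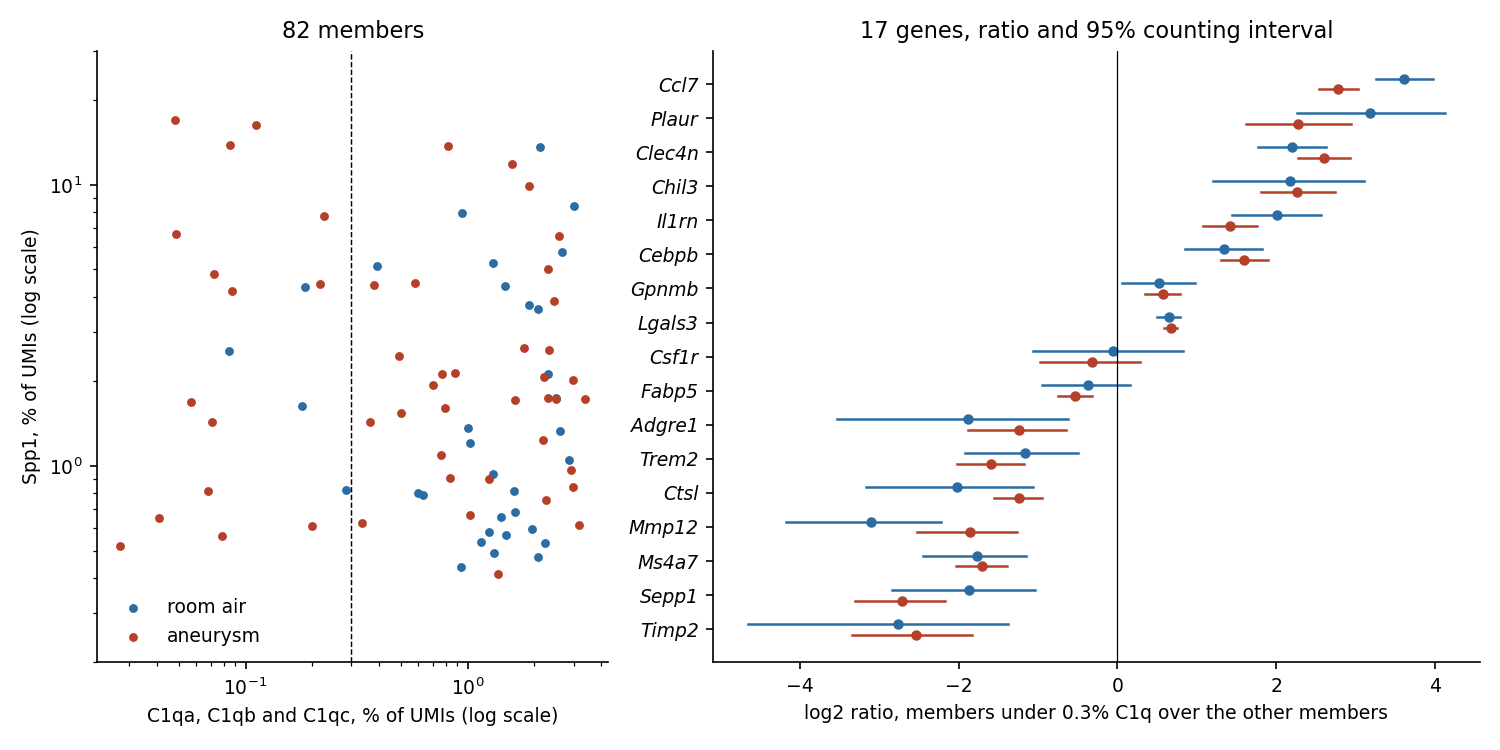
Left, Spp1 against summed C1qa, C1qb and C1qc, both as percentages of a member's UMIs on log scales, with the 0.3% limit dashed, for 33 room air (blue) and 49 aneurysm (red) cells. Right, log2 ratio of members under 0.3% C1q over the other members for 17 genes, with 95% counting intervals: Ccl7 lies highest and Timp2 among the lowest in both libraries.

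Members were also divided by their Spp1 share into 0.4% to 1%, 1% to 2% and 2% or more, which held 15, 6 and 12 room air cells and 14, 12 and 23 aneurysm cells. With Spp1 removed from the totals, Trem2 stood at 799, 1249 and 1307 CPM in room air and at 868, 1361 and 993 in aneurysm. With limits at 0.8% and 1.6% in their place it stood at 900, 738 and 1399 CPM in room air and at 854, 1055 and 1072 in aneurysm, so the order of the ranges depended on the limits. Lysosome genes summed to 44534, 59449 and 54424 CPM in room air and to 58471, 65745 and 51657 in aneurysm, with no common order of the lowest and the highest range.

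The comparison of the aneurysm with the room air members asks what differed in these cells where smoke and dilatation were added to the Apoe-/- background. Summed over members there were 300735 UMIs in room air and 469982 in aneurysm, and median mitochondrial shares were 1.96% and 1.75%. Of 5291 genes at 20 CPM or more in a library, 747 (14.1%) were over 1.5-fold higher in aneurysm and 921 (17.4%) over 1.5-fold lower, 31.5% in all, and the all-gene median was -0.05 on the log2 scale. That split moved with the weighting: with every cell given equal weight it was 824 higher and 1453 lower, and after the B cell level was subtracted 622 higher and 476 lower. The Cd3 limit bears on it too. Without it 499 genes were higher and 598 lower, and 323 of the 747 and 401 of the 921 were called in the same direction.

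Mmp12, the elastin-cleaving metalloproteinase, was lower in the aneurysm members as a sum. It stood at 2012 and 526 CPM in room air and aneurysm, 3.83-fold lower (3.30 to 4.46), and 5.55-fold lower without the Cd3 limit. It had a UMI in 21 of 33 and 21 of 49 members, and per 10000 UMIs its highest cell held 193 in room air and 54.1 in aneurysm, so the groups overlapped. A single room air cell gave 36.7% of the UMIs, and with the top cell of each library left out the ratio was 0.269 against 0.261 with it. Among members with at least 0.3% C1q the ratio was 0.294. By Spp1 share the difference lay in the highest range: with Spp1 removed from the totals, Mmp12 stood at 875, 254 and 4476 CPM in room air members of 0.4% to 1%, 1% to 2% and 2% or more, and at 679, 1095 and 281 CPM in those of aneurysm. The middle range, of 6 and 12 cells, thus had the opposite order. With limits at 0.8% and 1.6% the values were 156, 1382 and 3784 CPM in room air and 69.97, 1965 and 268 CPM in aneurysm, again with the opposite order in the middle.

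Of 21 lipid uptake, storage and efflux genes 6 were over 1.5-fold higher in aneurysm and none over 1.5-fold lower, against 14.1% and 17.4% of all genes, and their median was 0.23 on the log2 scale. With no Cd3 limit 2 of 22 were higher and 2 lower, with a median of 0.25. Of the 6, Scarb1 and Acsl1 had counting intervals that included 1. Plin2, which coats lipid droplets, stood at 795 and 1255 CPM in room air and aneurysm, a ratio of 1.58 (1.36 to 1.84), and was found in 30 and 45 members. Soat1, which esterifies cholesterol for storage, went from 66.5 to 140 CPM, a ratio of 2.11 (1.26 to 3.68). Without the Cd3 limit these ratios were 1.37 and 1.46. With the rule's Spp1 and Gpnmb left out, 5 of 22 lipid-associated macrophage genes were over 1.5-fold higher and 1, Mmp12, lower. Without the Cd3 limit, and with Spp1 and Gpnmb counted, 2 of 24 were higher and 1 lower. Gpnmb, which the rule used to choose the members, had a ratio of 1.69, and 1.39 without the Cd3 limit.

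Among the lysosomal enzymes, Ctsl and Atp6v0d2 depended on which cells were kept. Ctsl stood at 865 and 1577 CPM in room air and aneurysm, a ratio of 1.82 (1.58 to 2.11) that was 0.982 without the Cd3 limit. Atp6v0d2 had a ratio of 1.53 and of 0.744 without that limit. Gla, alpha-galactosidase A, stood at 29.9 and 117 CPM, a ratio of 3.91 (1.92 to 9.0), with UMIs in 8 of 33 and 29 of 49 members, and at 2.15 without the limit. Ctsd did not follow, at 4941 and 4766 CPM with a ratio of 0.965 (0.903 to 1.03). Of 35 lysosome genes 4 were over 1.5-fold higher and 1 lower, against 14.1% and 17.4% of all genes.

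Among the other named genes higher in aneurysm members were those of coagulation factors. F10, coagulation factor X, stood at 73.2 and 211 CPM in room air and aneurysm, a ratio of 2.88 (1.80 to 4.80) that was 2.93 without the Cd3 limit, with UMIs in 6 of 33 and 24 of 49 members. Among members with at least 0.3% C1q its ratio was 1.52, and its aneurysm level was 528 CPM in the low-C1q members and 80.9 CPM in the others. F13a1, the coagulation factor XIII A chain and a resident macrophage marker, stood at 36.6 and 187 CPM, a ratio of 5.12 (2.73 to 10.6), and its room air level was close to the 34.5 CPM of B cells. Without the Cd3 limit that ratio was 1.82.

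Por, cytochrome P450 reductase, stood at 53.2 and 172 CPM, a ratio of 3.24 (1.88 to 5.93), and Srxn1, sulfiredoxin, a ratio of 2.88 (1.16 to 8.53), with UMIs in 5 and 16 members. Srxn1 belongs to a wider redox group that did not move as 1. Of 23 genes of the NRF2 and smoke response, 5 were over 1.5-fold higher and 2 lower, against 14.1% and 17.4% of all genes. Their median was -0.02 on the log2 scale. Hmox1, haem oxygenase 1, stood at 99.8 and 196 CPM, and Sod1, superoxide dismutase 1, at 63.2 and 23.4 CPM. Fosl2, an AP-1 subunit, went from 16.6 to 57.4 CPM, a ratio of 3.46 that was 2.21 without the Cd3 limit. The ranking also named Slc25a24, Atp13a3, Gm6377, Tpcn2, Mnda, Dnajc12, Tlr13, Acot9 and Ltb4r1, which had 1 to 7 UMIs in all room air members. The largest ratio, 7.68 for Slc25a24, rests on 1 room air UMI and has an interval of 1.14 to 328. With no Cd3 limit the ratios of the 9 genes ran from 1.26 for Ltb4r1 and 1.33 for Tpcn2, both under 1.5-fold, to 4.65 for Gm6377, and that of Slc25a24 was 2.30 (0.882 to 6.66).

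Of 11 interferon response genes 6 were over 1.5-fold higher in aneurysm members and 1 lower, against 14.1% and 17.4% of all genes. Their median was 0.90 on the log2 scale. Oasl2, a 2-5-oligoadenylate synthetase-like gene, went from 16.6 to 61.7 CPM, a ratio of 3.71 (1.42 to 12.3) that was 3.75 without the Cd3 limit. Ifitm3, a membrane protein that blocks viral entry, stood at 728 and 1000 CPM, and Ifit1 at 0 and 21.3 CPM. Growth factor and matrix genes were mixed, 5 of 16 higher and 3 lower, beside the same all-gene shares. Thbs1, thrombospondin 1, stood at 63.2 and 157 CPM with 42.1% of the room air UMIs from 1 cell, and Igf1, insulin-like growth factor 1, at 452 and 330 CPM, a ratio of 0.729 that turned to 1.18 without the Cd3 limit.

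Among the genes that met the naming rule, Ccdc88a, the actin-binding protein girdin, had the lowest ratio, at 63.2 and 14.9 CPM in room air and aneurysm, 4.24-fold lower (1.71 to 11.9) and 2.58-fold lower without the Cd3 limit. Trim47, a ubiquitin ligase, was 3.52-fold lower (1.72 to 7.62). Atg7, an enzyme of autophagy, stood at 59.9 and 25.5 CPM, a ratio of 0.427 that was 0.866 without the Cd3 limit. Tgfbr1, the type I receptor of transforming growth factor beta, stood at 120 and 57.4 CPM, 2.08-fold lower (1.23 to 3.57), with a ratio of 0.681 without the limit. The other named genes were Syce2, Ncoa7, Fndc3b, Mrps5, Ppp2r5c, Cpq, Rbm47, Prmt2, Frmd4b, Plbd2 and Tmbim1, from 2.00-fold to 3.44-fold lower. Without the Cd3 limit Syce2 was 3.42-fold lower and Ncoa7 2.00-fold, while Ppp2r5c, Cpq, Frmd4b, Plbd2 and Tmbim1 were 1.28-fold to 1.42-fold lower, under the 1.5-fold limit. Of 13 cell cycle genes 6 were over 1.5-fold lower and none higher, against 17.4% and 14.1% of all genes. The counts rest on few cells: Birc5, a mitotic gene, had UMIs in 5 room air members and 1 aneurysm member, with 69.2% of the room air UMIs from 1 cell.

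C1qa and class II genes differed in the median cell more than in the sum. C1qa stood at 5161 and 3338 CPM, 1.55-fold lower (1.44 to 1.66) in aneurysm, and its median per 10000 UMIs was 45.2 in room air and 17.2 in aneurysm. Without the Cd3 limit that ratio was 0.901. H2-Ab1 summed to 3215 and 3158 CPM, a ratio of 0.982, while its median per 10000 UMIs was 25.3 in room air and 9.63 in aneurysm, with highest cells of 107 and 151. Cd74 behaved alike, with a ratio of 1.24 and medians of 29.98 and 19.4. Even its lowest cell held 17.8 per 10000 UMIs in room air, against 5.43 in aneurysm. B cells, which should lack C1q, held 0.177% of UMIs as C1q in room air and 0.0736% in aneurysm. The part of such RNA spread over other cells in these medians was not tested. For H2-Ab1 the upper quartile of the aneurysm members, 24.99, lay just under the room air median, and a few aneurysm members lay far above it. Of 10 class II genes none was over 1.5-fold higher and 2 were lower, and of 12 complement genes 2 were higher and 2 lower. Over all genes 14.1% were higher and 17.4% lower.

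The counts of the remaining gene groups are to be read against the 14.1% and 17.4% of all genes. Inflammatory cytokines and chemokines were over 1.5-fold higher in 4 of 19 and lower in 4 (7 and 3 of 19 without the Cd3 limit), Ccl2 at 1892 and 2117 CPM with a ratio of 1.12 that was 1.89 without the Cd3 limit. Glycolysis and hypoxia genes were higher in 4 of 21 and lower in none, and none of 40 oxidative phosphorylation genes passed 1.5-fold. Extracellular proteases were higher in 3 of 12 and lower in 2, protease inhibitors in 2 of 7 and 2, and osteoclast-like genes in 2 of 9 and 1. Resident macrophage genes were higher in 4 of 14 and lower in none, a split that turned to 1 higher and 6 lower without the Cd3 limit. Scavenger and efferocytosis receptors were higher in 3 of 17 and lower in 2, and iron and haem genes in 1 of 11 and none. Cholesterol synthesis genes were higher in 1 of 5 and lower in 1, leukotriene and prostaglandin genes in none of 10 and 1, and dissociation and heat shock genes in 2 of 23 and 7, with Hspa8, a constitutive chaperone, at 2820 and 1981 CPM.

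**Figure D5:**
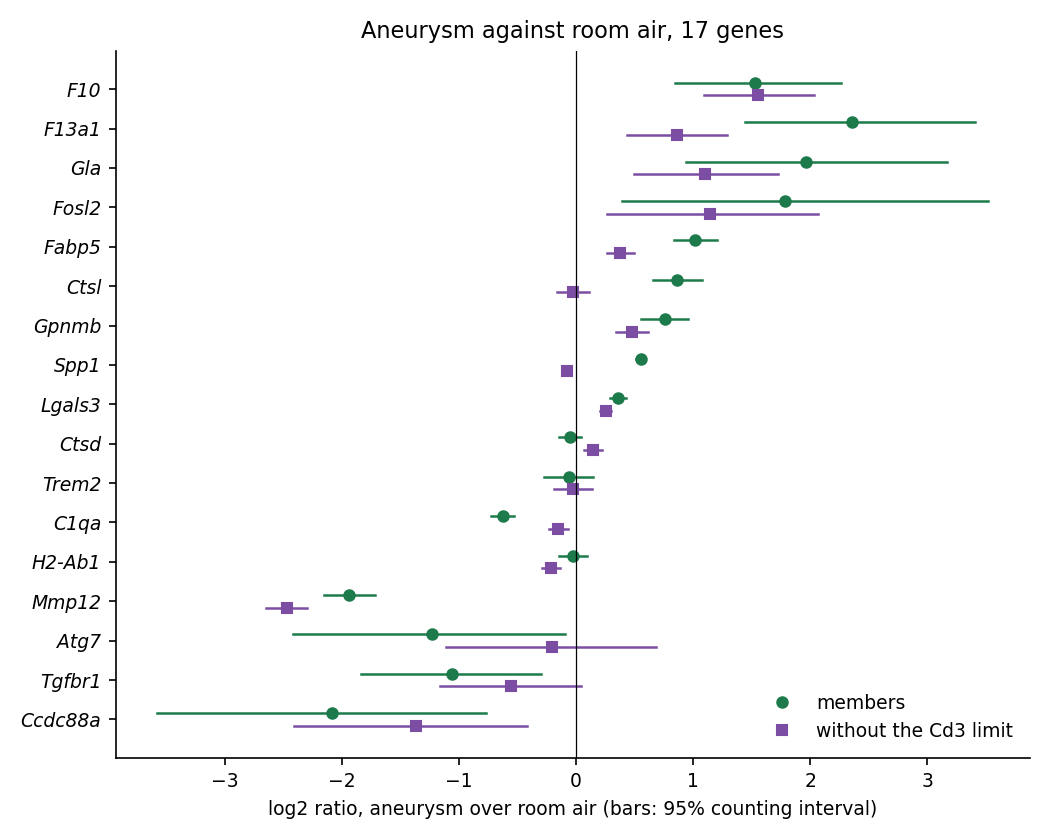
Log2 ratio of aneurysm over room air for 17 genes, with 95% counting intervals, in the members (green circles) and without the Cd3 limit (purple squares). Mmp12 lies below 0 and F10 above 0 either way, while Ctsl has a ratio of 1.82 in the members and 0.982 without the limit.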

How the data were processed

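Single-cell 3′ libraries made with the 10x Genomics v2 kit were analysed, 1 per group and 3 in all. Per the submitters' processing notes, the authors used Cell Ranger with STAR and mm10; no version of Cell Ranger is stated in the sources used here. What the authors deposited are raw UMI counts per gene and barcode for 27998 genes. Members and gene lists were chosen with earlier results of these data known.

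UMIs were summed over the members of a library and given as counts per 1e6 UMIs (CPM). Genes at 20 CPM or more in 1 library entered the comparison, and a gene was called past 1.5-fold. Ratio intervals are exact conditional binomial intervals and shares have Clopper-Pearson intervals, both at 95%; with 1 library a group no p-value can be had. The floor for a share of 0 is 3 counts. Shares compared across depths came from cells thinned to 3000 UMIs. Doublets were left in, with Scrublet scores as an alternative. Named genes were the 15 largest ratios in each direction with an interval off 1, UMIs in at least 10 members, no cell giving over 20% of them and at least 3 times the B cell level, the 20 highest and 10 lowest over C1q-high macrophages at 50 CPM or more, and the highest and most different genes of 21 lists. Promoter windows are from RefSeq (GRCm38.p6) and gene positions from GENCODE M21. Python 3.11.15, numpy 2.4.6, scipy 1.17.1, pandas 2.3.3 and scanpy 1.11.5 were used, and the scripts were tested on simulated data.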

Additional observations from a re-analysis of the deposited data

How the results depend on the processing

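The count of members depended on the limits. Room air members were 49 with Spp1 at 0.2% or more, 18 at 1% or more, 57 with no Cd3 limit and 52 with Cd3 at most 0.05% of UMIs. Aneurysm members were 70 with Spp1 at 0.2% or more, 35 at 1% or more and 77 with no Gpnmb requirement. Genes over 1.5-fold higher in aneurysm were 103 at 100 CPM or more and 1481 with no level filter. Genes over 1.5-fold lower were 598 with no Cd3 limit, 560 with Cd3 at most 0.05% of UMIs, 1453 with every cell of equal weight, 476 with the B cell level subtracted, 86 at 100 CPM or more and 2612 with no level filter. Of the gene lists, 16 had a median above that of all tested genes, and 10 with Cd3 at most 0.05% of UMIs. The ratio of Atp6v0d2 fell to 0.919 with Spp1 at 1% or more, 0.744 with no Cd3 limit and 0.723 with Cd3 at most 0.05%, and that of Ctsl to 0.982 and 0.970 under the latter pair. The cause was not tested. The 0.05% and no-limit settings for Cd3, the C1q limits and the removal of the top cell were chosen after seeing the data.

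No paired analysis was possible because each group is 1 library, and for the same reason leaving out a replicate was not possible. The planned comparison with classical monocytes, which allowed at most 2 C1q UMIs, was not made because 0 room air cells met that rule. With C1q under 0.4% of UMIs in its place, a limit chosen after seeing the data, 46 room air and 156 aneurysm cells met it. Of 2178 genes at 50 CPM or more in members of both libraries, 270 were over 1.5-fold above those monocytes in both. Depth limits single genes: the room air members held 300735 UMIs in all, and levels there that rest on 1 to 3 UMIs are imprecise.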

Other observations

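The cells set aside by the Cd3 limit were described as values of their own. The 24 room air cells held Spp1 at 40706 CPM and the 14 aneurysm cells at 20829 CPM, against 25557 and 37444 CPM in the members, so the order of the libraries was opposite in the 2 sets. Their Cd3 genes summed to 253 and 288 CPM, with a median of 3 and 2 UMIs a cell, where T cells held 3063 and 3035 CPM. Cells past the Spp1 limit without a Gpnmb UMI numbered 24 and 39, and 15 and 11 of these were also over the Cd3 limit. Their Spp1 stood at 18405 and 20871 CPM.

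Arg1, arginase 1, stood at 46.6 CPM in room air members and 434 CPM in aneurysm members, and 77.5% of the aneurysm UMIs came from 1 cell. Cxcl3, a neutrophil chemokine, stood at 3.33 and 91.5 CPM with UMIs in 1 and 6 members, and 39.5% of its aneurysm UMIs came from 1 cell. Stfa2l1, a stefin family gene known from neutrophils, had UMIs in 1 and 3 members. None of these 3 genes was widely shared among the members of either library.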
